A study of Mus musculus with 2 samples.

Results

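Processed pseudogene transcripts are annotated copies of messenger RNAs that were reverse transcribed and inserted back into the genome. They were taken here by their deposited transcript biotype, which had to be processed_pseudogene or transcribed_processed_pseudogene. The rule found 6093 of 109463 transcripts, 5924 of the first biotype and 169 of the second, belonging to 6091 genes. None of them had an annotated coding sequence length above 0. The values were ribosome footprints, the RNA fragments that a translating ribosome shields from nuclease, from whole brains of control mice at P5. Both mice had the genotype Smn+/-; SMN2tg/0 on strain FVB, so each had lost 1 mouse Smn allele and carried the human SMN2 transgene. The series held 1 group of 2 biological replicates, so a mouse without the transgene or with 2 Smn alleles was not compared here. Per the labels' protocols, RNase I was applied to combined polysome fractions of a sucrose gradient, and fragments of 25 to 35 nucleotides were sequenced.

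A processed pseudogene lacks the introns of its parent gene and often keeps the parent's reading frame only in part. Genes with abundant messenger RNA in the germ line, such as those for ribosomal proteins, glycolytic enzymes and cyclophilin A, have left many such copies in mammalian genomes. A recent copy can be almost identical to its parent over stretches longer than a ribosome footprint. Such a footprint can match the parent and the copy alike. How fragments with several matches were placed is not given in the sources used here, so a count on a pseudogene is what the deposited table assigned to it, and its origin was not tested.

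The pair Tma7 and Tma7-ps gives an example of such identity, and its sequences are printed for that reason. Tma7 encodes a translation machinery-associated protein. RefSeq start windows of assembly GRCm38.p6, which run from 250 bases before to 50 bases after a gene's start, were available for 46 of the 6093 transcripts. For 3 of these the window was compared with that of a parent known from the name or, for Rpl37rt, from an older name. RefSeq lists all 3, Tma7-ps, Rpl31-ps12 and Rpl37rt, as protein-coding genes, so no RefSeq pseudogene was compared with its parent. Of the 3, Tma7-ps shared the longest run with its parent within these windows. Capitals mark the ATG. The shared run lies at chr1:171711072-171711098 on the plus strand in Tma7-ps, at bases 3 to 29 from RefSeq's start site, and at chr9:109082332-109082358 on the minus strand in Tma7, at bases 24 to 50.
shared by Tma7-ps and Tma7: aggggctggaggcgccATGtcgggccg
The run of 27 bases was found in 3 of 32851 start windows, searched on both strands, or 0.00913%. It is as long as some of the fragments that were sequenced. The run ends at the last base of the parent's window, so its full length was not seen. The 30 bases just before it, at chr1:171711042-171711071 in the copy and chr9:109082359-109082388 in the parent, matched at 2 of 30 positions.
Tma7-ps before the run: cccagagacctagattaaaaccaaatactg
Tma7 before the run: tgtttccggcatacgatcaggggctggtga
Rpl31-ps12, a copy of the gene for a protein of the large ribosomal subunit, shared a shorter run with Rpl31 within the windows. This run too ends at the last base of the parent's window, so which pair is alike over the longer stretch was not seen. The run was 12 bases long, lay at chr16:16820158-16820169 on the minus strand and chr1:39367889-39367900 on the plus strand, and was in 6 windows, or 0.0183%.
shared by Rpl31-ps12 and Rpl31: tcccacaaaccc
The third pair, Rpl37rt and Rpl37, shared no run longer than 8 bases, and that run was in 10.8% of all windows, so these windows show no identity between them. In the Rpl31 pair the 30 bases before the run, at chr16:16820170-16820199 and chr1:39367859-39367888, matched at 17 of 30 positions. Most of these matches lay close to the run, and most bases farther upstream differed.
Rpl31-ps12 before the run: cacaaaaatcaacaacatggcgactttcct
Rpl31 before the run: ccggaagttgtacggctacgcgactttccc
Tma7-ps had 28 footprints in replicate 1 and 82 in replicate 2, and Tma7 had 64 and 205. In the deposited table Tma7-ps is 195 nucleotides long, exactly the length of the parent's coding sequence, so it may not hold the whole shared run. Rpl31-ps12 had 29 and 82, and Rpl31 had 235 and 682.

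The libraries held 1866831 and 5261878 footprints, a ratio of 2.82. A count of 3, taken as the limit that a count of 0 allows, corresponded to 1.61 and 0.570 CPM (counts per 1000000 footprints of the library). All 6 neuronal, 5 astrocyte, 5 oligodendrocyte-lineage and 4 microglial markers had at least 10 footprints in both replicates. The 4 testis genes Prm1, Prm2, Tnp1 and Odf1 were at 0 in both, as were the liver genes Alb and Cyp2e1. Ttr, listed with the liver genes but also made by the choroid plexus, had 1087 and 1456 footprints. Of the 4 skeletal muscle genes, the muscle actin Acta1 had 140 and 264. The others were low, with 1 and 12 for Myh1, 5 and 10 for Myh4, and 3 and 4 for Ckm. Intervals below are exact binomial (Clopper-Pearson) 95% intervals and cover counting error only, since fragments copied by PCR are not independent molecules.

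Processed pseudogene transcripts carried 79837 footprints in replicate 1 and 234362 in replicate 2. Their share was 4.28% (4.25 to 4.31) and 4.45% (4.44 to 4.47), or 4.37% ± 0.125 (SD, n = 2). The intervals did not overlap, so the shares differed by more than counting error. The biotype processed_pseudogene gave 4.17% ± 0.127 and transcribed_processed_pseudogene 0.195% ± 0.00115 (SD, n = 2). Unprocessed pseudogenes, which arise by duplication of genomic DNA and keep introns, carried 0.187% ± 0.0457, and long intergenic non-coding RNAs (lincRNAs) carried 0.172% ± 0.00517. Protein-coding transcripts carried 75.5% ± 1.09. The 12 transcripts of the separate biotype translated_processed_pseudogene, which the rule leaves out, carried 0.0190%.

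Most of these pseudogenes were detected, but few were well covered. At least 1 footprint in both replicates was found for 3407 (55.9%), and at least 10 in both for 1562 (25.6%). No footprint in either was found for 1852 (30.4%). At least 10 footprints in replicate 2 alone were found for 2682, and for 1794 after replicate 2 was thinned to the depth of replicate 1. Of unprocessed pseudogenes, 1871 of 2145 (87.2%) had no footprint in either replicate and 38 (1.77%) had at least 10 in both. Of lincRNAs, 73.0% had none and 66 (1.30%) had at least 10 in both, and of protein-coding transcripts 18.1% had none and 42.0% had at least 10 in both. By this measure processed pseudogenes lay between coding transcripts on one side and unprocessed pseudogenes and lincRNAs on the other. Retained introns (none in 11.5%) and the biotype processed_transcript (none in 21.1%) are non-coding isoforms mostly of coding genes. They were less often without any footprint than the pseudogenes (30.4%). At least 10 in both were found for 24.8% and 17.5% of them, below the 25.6% of the pseudogenes, so this order depended on the threshold.

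Level was compared per length, as CPM per kilobase of transcript, called density below. Processed pseudogenes were short, with a median of 549 nucleotides (quartiles 367 and 889) against 1845 for coding transcripts. Their summed footprints over their summed length gave a density of 10.2 in replicate 1 and 10.6 in replicate 2, or 10.4 ± 0.299 (SD, n = 2). The summed density was 6.28 ± 0.0907 over coding transcripts, which made the pseudogene value 166% ± 7.15 of it. Against coding genes the order was the other way round. The table lists on average 3.74 transcripts for a coding gene. With all footprints of each of 21874 coding genes set over its longest coding transcript the density was 14.5 ± 0.0076. The pseudogenes then stood at 71.7%, and with coding sequence length in place of transcript length for coding transcripts at 96.9%. Whether pseudogenes or coding RNAs had more footprints per kilobase therefore depended on how a coding gene's isoforms and untranslated regions were counted. The other non-coding classes were lower in both replicates, at 0.904 and 1.28 for unprocessed pseudogenes and 0.288 and 0.276 for lincRNAs.

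**Figure D1:**
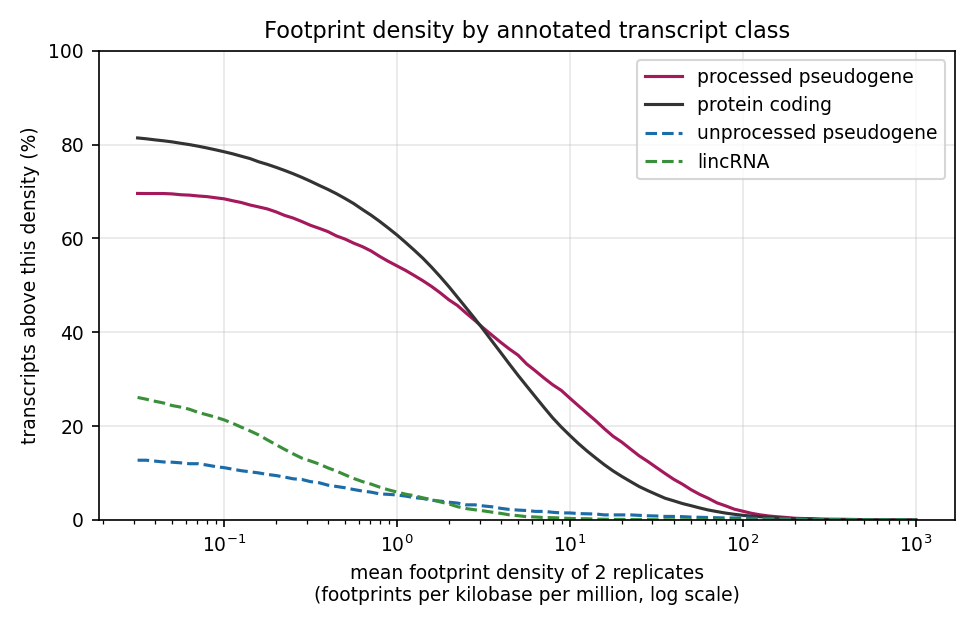
The curves give the percent of transcripts of 4 classes whose mean density over the 2 replicates, in CPM per kilobase (log scale), lies above the value on the horizontal axis. The processed pseudogene curve starts below the protein-coding curve, crosses it and lies above it at high density, while unprocessed pseudogenes and lincRNAs stay low throughout.

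The spread within the class was wide. The median density of a processed pseudogene transcript was 1.12 and 1.87 in the 2 replicates, against 1.67 and 2.19 for a coding transcript. The 90th percentile was 33.1 and 37.4, against 18.1 and 19.0. Of the pseudogenes, 1051 (17.2%) had a mean density above the coding 90th percentile, while 47.1% lay above the coding median. By length, the summed density of pseudogenes of 300 to 600 nucleotides was 13.3 and 14.2, close to 12.9 and 12.1 for coding transcripts of that length. Below 300 nucleotides it was 15.1 and 14.4 against 8.72 and 8.73, at 600 to 1000 it was 7.91 and 8.86 against 9.52 and 9.33, and at 1000 to 2000 it was 11.3 and 10.9 against 9.40 and 8.65. From 2000 nucleotides up it was 3.57 and 3.89 against 5.38 and 5.38. Pseudogenes were thus higher in 3 of the 5 length classes and lower in the other two, with no single trend.

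Footprints were concentrated on few pseudogenes. The 10 with most held 8.72% of all footprints on the class, the 100 with most held 28.8% and the 1000 with most held 79.1%. In all, 318 (5.22%) held the first 50%, which is near the 6.55% of coding transcripts that did so among coding transcripts. Above 100 CPM on average there were 40.

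That leading transcript was Gm14150 (ENSMUSG00000082809, 1354 nucleotides), a predicted gene that carries no parent in its name. It had 1645 footprints in replicate 1 and 2935 in replicate 2, or 881 and 558 CPM. Gm5620 (ENSMUSG00000056904, 1348 nucleotides) followed with 1590 and 2644 footprints, or 852 and 502 CPM. In both genes replicate 1 was higher after scaling by depth, and their intervals did not overlap between replicates. Gm15459 had 441 and 392 CPM, Gm12715 had 483 and 349, and Gm1821 had 433 and 283. The other 10 of the leading 15 were, in falling order of mean CPM, Gm12346, Gm13456, Gm4202, Vcp-rs, Gm15599, Gm11223, Gm12892, Gm6180, Gm5844 and Gm15725. They ran from 202 CPM (Gm5844) to 282 CPM (Gm11223) in replicate 1 and from 165 CPM (Gm15725) to 255 CPM (Gm12346) in replicate 2. Gm5844, at 202 and 204 CPM, was the only one of the 15 that was not lower in replicate 2 by CPM, and after the scaling used for the test below its log2 ratio was −0.14 (not called).

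**Figure D2:**
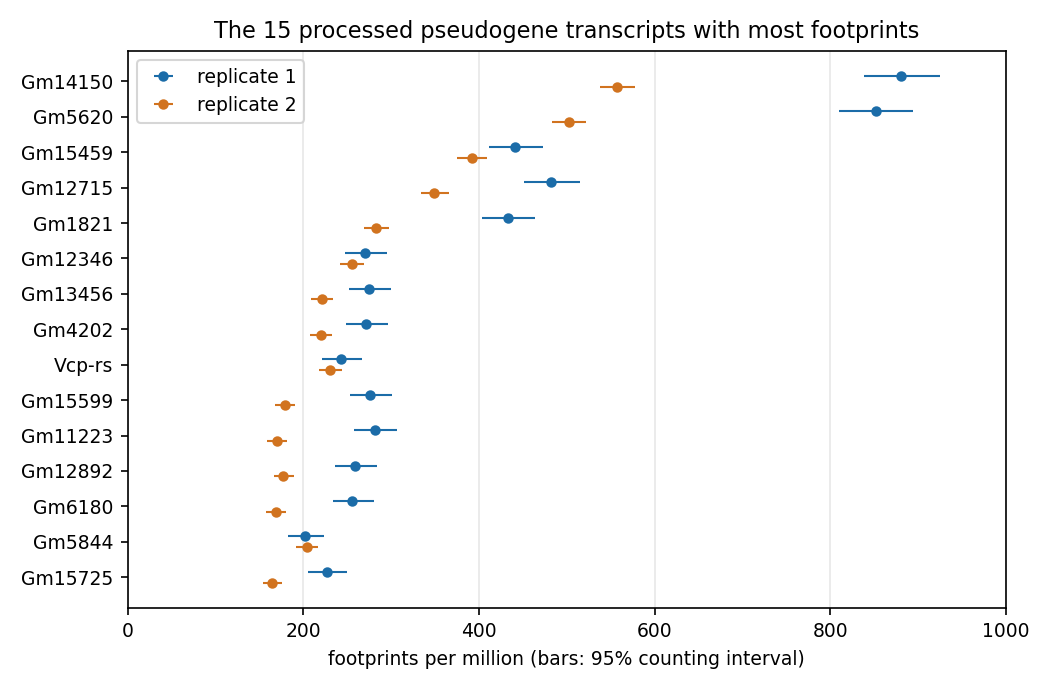
Footprints in CPM of the 15 processed pseudogene transcripts with most footprints, with replicate 1 and replicate 2 as separate points and 95% exact binomial counting intervals as bars. Gm14150 and Gm5620 stand apart at over 800 in replicate 1, and the points of replicate 2 lie to the left for all but Gm5844.

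Ordered by density, short transcripts joined the list. Among transcripts of at least 200 nucleotides the leading 5 were Gm14150 (density 651 and 412), Gm1821 (627 and 410), Gm5620 (632 and 373), Gm11223 (626 and 378) and Gm6682 (575 and 377). Gm6682 is 297 nucleotides long and had 319 and 589 footprints. Gm3756, of the same length, had 267 and 518 footprints, or a density of 482 and 331. Gm6180, Gm12715, Gm4202 and Gm15487 completed the leading 10, the last with a density of 309 and 235. These values are far above the class's own 90th percentile, and neighbours in this order differed by less than the gap between the replicates.

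The 169 transcripts with the transcribed biotype, for which the annotation records evidence of transcription at the locus itself, had a higher summed density, 14.5 in replicate 1 and 14.4 in replicate 2, against 10.05 and 10.5 for the biotype processed_pseudogene. Their median density was lower, 0.611 and 1.28 against 1.13 and 1.88, so the typical transcript of this biotype was not better covered. At least 10 footprints in both replicates were found for 52 (30.8%), against 25.5% of the biotype processed_pseudogene, and none in either for 34.3% against 30.3%. Gm12346 (2255 nucleotides) led with 505 and 1344 footprints, followed by Gm15725 with 423 and 868. Gm6061, which RefSeq lists with a synonym as a copy of Ppia, the gene for cyclophilin A, had 236 and 588. Gm16379, listed as a copy of the cytokine gene Mif, had 101 and 256. The other leading transcripts of this biotype were Gm11226, Gm4750, Gm8464, Gm6472, Gm5641 and Gm15500, from 85 footprints in replicate 1 (Gm15500) to 498 in replicate 2 (Gm11226).

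RefSeq did not class all of these transcripts as pseudogenes. Of the 6093 transcripts, 3789 had a RefSeq symbol, of which 3600 were pseudogenes, 130 transcribed pseudogenes, 45 protein-coding genes and 13 lncRNAs. The 45 listed as coding had 546 and 1771 footprints, 0.684% and 0.756% of those on the class. Their density, 9.81 and 11.3, was close to that of the RefSeq pseudogenes, 11.7 and 12.1. Rpl37rt, a retrogene of the large-subunit protein gene Rpl37, led them with 79 and 193 footprints, and H3f3c, a histone H3 gene, had 46 and 189. Mab21l2, a gene of eye and brain development with 2580 nucleotides in the table, had 23 and 110, or 12.3 and 20.9 CPM. The 2304 transcripts with no RefSeq symbol had a lower density, 6.25 and 6.53, and 12.5% of them had at least 10 footprints in both replicates.

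Names showed the parent for a minority. The suffix -ps was carried by 503 transcripts, which held 13.8% and 14.6% of the class's footprints, while 4858 with a Gm number held 78.1% and 77.2%. Of the 503, 408 matched a coding gene of the table by symbol, for 179 parents, and 95 did not. Tubb4b-ps1, a copy of a beta-tubulin gene, had most footprints of the -ps transcripts, 364 in replicate 1 and 809 in replicate 2. Pgam1-ps2, a copy of the gene for the glycolytic enzyme phosphoglycerate mutase, had 360 and 760. Eif4a-ps4, named for the eIF4A helicase of translation initiation but with no exactly matching symbol, had 273 and 772.

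Over all matched families, 18.02% of footprints in replicate 1 and 19.3% in replicate 2 lay on the -ps transcripts and the rest on the parents, or 18.7% ± 0.916 (SD, n = 2). Per length a single copy was well below its parent. The median log2 ratio of a copy's density to its parent's was −2.41 and −2.20, or −2.30 ± 0.147 (SD, n = 2). It was −1.20 against the parent's transcript with most footprints and −3.52 over the parent's coding sequence length, so its size depended on that choice. The middle 50% of copies ran from −4.31 to −1.17 in replicate 1. No footprint in either replicate was found for 38 of the 408, and at least 10 in both for 206. Of the 206, 28 had a higher density than the parent in both replicates when the parent's footprints were set over its longest coding transcript. With the parent's coding sequence length in its place only 1 did, Gstm2-ps1.

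Copies with an annotated length close to that of the parent's coding sequence were covered most. Only lengths were compared here, not sequences or reading frames. Of the 408, 290 (71.1%) had a length within 5% of the parent's longest coding sequence, and 103 had exactly its length. Of the 290, 172 (59.3%) had at least 10 footprints in both replicates, with a summed density of 24.0 and 26.9. Of 104 shorter copies 28 (26.9%) did, with 7.97 and 9.15, and of 14 longer copies 6 (42.9%) did, with 13.5 and 14.7. Copies with no footprint had parents at a median of 35.2 CPM, 7 of them with parents at 0, and copies with at least 10 in both had parents at a median of 129 CPM. Across 102 families with at least 10 footprints in both replicates on the parent and on its copies, the log2 densities of copies and parent had a Spearman rho of 0.394 and a Pearson r of 0.438. Families share the 2 libraries and their lengths differ, so this is a description.

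**Figure D3:**
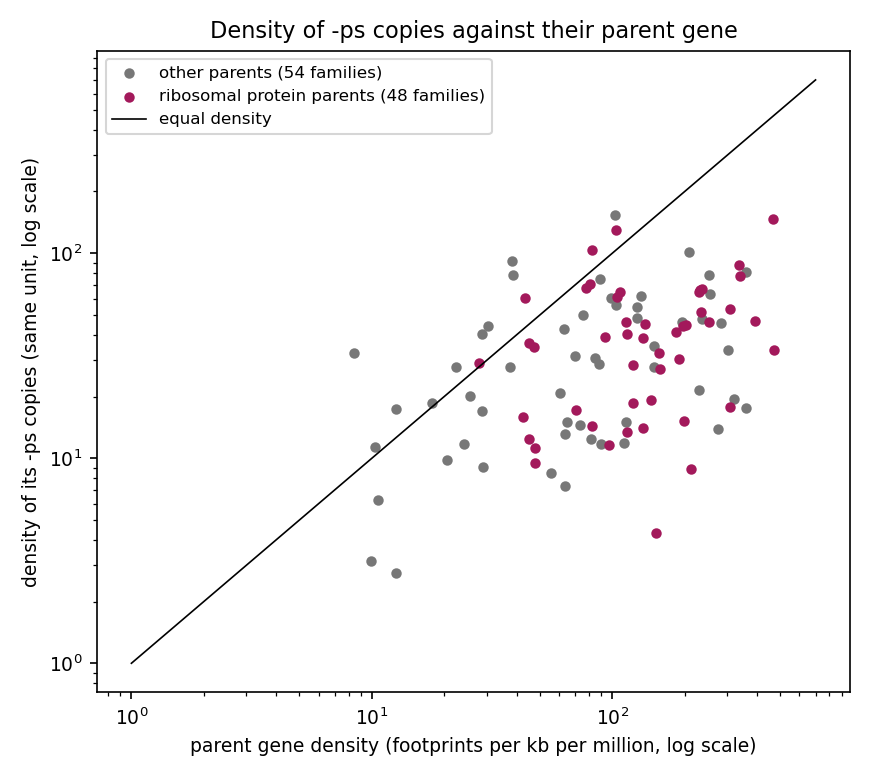
Each point is 1 of 102 families, with the mean density of the parent gene on the horizontal axis and of its -ps copies on the vertical axis, both in CPM per kilobase on log scales. Most points lie below the line of equal density, and the 48 ribosomal protein families mix with the 54 others.

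Ribosomal protein genes supplied most of the named copies. Of the 408, 240 came from 56 parents that encode proteins of the cytosolic ribosome, and 135 of the 240 had at least 10 footprints in both replicates. They carried 5852 and 19243 footprints, 29.99% ± 1.32 (SD, n = 2) of these families, with the parents at 14290 and 42981. For the 115 copies of 95 parents outside the fixed groups the share was 7.68% ± 0.433. Ribosomal parents also had more copies each, and the part of copy number in the difference was not tested.

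Within the ribosomal group the families divided into those led by the copies and those led by the parent. Rpsa encodes a small-subunit protein also known as the laminin receptor. Its 9 copies had 477 and 1578 footprints together and the parent 155 and 449, so the copies held 75.5% (71.9 to 78.8) and 77.8% (76.0 to 79.6). Per length the order was turned, with a density of 33.6 and 39.5 for the copies against 44.6 and 45.9 for the parent. Rps12, another small-subunit gene, had 20 copies with 156 and 595 footprints against 34 and 129 on the parent, and a share of 82.1% ± 0.0545 (SD, n = 2). No single copy led it, since Rps12-ps9 had 17 and 76 and the copies ranged from 0 to 20 in replicate 1. The 7 copies of Rpl17, a large-subunit gene, had 211 and 917 footprints against 53 and 235, a share of 79.8% ± 0.229. The 7 copies of Rps13 held 75.7% ± 0.746, with 366 and 967 footprints.

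The family with most named copies was Rpl31, whose 22 copies had 264 and 879 footprints against 235 and 682 on the parent. Their share was 54.6% ± 2.41 (SD, n = 2). Footprints per copy ran from 0 to 38 in replicate 1 and from 2 to 127 in replicate 2, and 12 of the 22 had at least 10 in both. The copies therefore held most of the family's footprints in sum while each had fewer than the parent. Parents led in most of the other ribosomal families named here. The share was 48.9% for Rpl19 (4 copies), 43.0% for Rps6 (4 copies), 34.7% ± 3.48 for Rpl3 (2 copies), 32.5% for Rps19 (14 copies) and 18.7% for Rps10 (4 copies). Of the 13 copies of Rpl23a, 5 had no footprint in either replicate, and the family's share was 23.0%. In the families of Rpl7a, Rpl9, Rpl10, Rpl15, Rpl21, Rpl26, Rpl30, Rpl35a, Rpl36a, Rps2 and Rps15a, each with at least 4 copies, the share ran from 10.2% (Rpl26) to 44.2% (Rpl30). The 5 copies of Rpl36 held 55.9% ± 1.12.

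Outside the ribosome the cytoskeleton and glycolysis groups rested on 1 or a few copies. Both copies of Tubb4b were near the parent's coding sequence in length. Together they had 555 and 1291 footprints against 704 and 1512 on the parent, a share of 45.1% ± 1.40 (SD, n = 2). Both copies of Pgam1 had 485 and 1080 against 409 and 823, a share of 55.5% ± 1.77. Pgam1-ps2 alone had a density of 252 and 189, above the parent's 120 and 85.4 over its whole transcript and below its 286 and 204 over the coding sequence. The 5 glycolytic copies together held 18.7% ± 0.595, since the other parents were much more abundant than their copies.

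Copies of nuclear and translation genes were mostly covered. Hmgb1 encodes an abundant chromatin protein, and each of its 9 copies had at least 10 footprints in both replicates. Together they had 301 and 979 against 405 and 1397 on the parent, a share of 41.9% ± 1.01 (SD, n = 2). The 5 copies of Tpt1, the gene for translationally controlled tumor protein, held 30.3% with 190 and 734 footprints. The 11 chaperone copies held 9.78% ± 0.127, led by Hspd1-ps3, a copy of the mitochondrial chaperonin gene, with 170 and 448 footprints. The 5 copies of Hspe1, the gene for the cochaperonin of Hspd1, held 16.9% ± 4.04. The 7 copies of Ppp1r2, which encodes an inhibitor of protein phosphatase 1, held 37.6% ± 8.98, with 35 and 185 footprints. In the ubiquitin and proteasome group the 5 copies held 7.17% ± 0.522. The 3 copies of RNA-binding protein genes held 5.81% ± 2.47, and none had at least 10 footprints in both replicates.

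Single copies could exceed their parent per length. Gstm2-ps1, a copy of a glutathione S-transferase gene, had 39 and 116 footprints against 14 and 55 on the parent. Its density, 31.8 and 33.6, was above the parent's 7.05 and 9.82 over the transcript and above 11.4 and 15.9 over the coding sequence. Rab11b-ps2, a copy of a gene for a GTPase of recycling endosomes, had a density of 95.4 and 88.5 against 36.3 and 40.3 for the parent. Over the coding sequence the parent had 338 and 375, so that order was turned. In 10 families the copies held over 50% of footprints on average, namely Rpsa, Pgam1, Rps13, Rpl31, Rpl17, Rps12, Rpl36, Rps23, Gstm2 and Ap3s1.

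Further parents appeared when -ps names among RefSeq synonyms were used, which brought the matched transcripts from 408 to 455. Ppia then had 29 copies, of which 15 had at least 10 footprints in both replicates. The copies had 1180 and 2989 footprints against 1241 and 2912 on Ppia, or 48.7% and 50.7%. Mif then had 5 copies, 4 of them from synonyms, with 256 and 615 footprints against 307 and 624, or 45.5% and 49.6%. Rpl19 gained 1 copy and passed 50%, at 50.4% and 53.0%. Vcp-rs, among the leading 15, is a single copy of Vcp, the gene for an ATPase that extracts ubiquitinated proteins. It had 454 and 1214 footprints against 738 and 1797 on Vcp, or 38.1% and 40.3%.

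The division of footprints between copies and parent differed by few percentage points between the replicates in most families. In each of the 102 families the intervals of the share overlapped between the replicates. Intervals on few footprints are wide, so this overlap cannot show equal shares. The shares differed by a median of 1.72 percentage points and at most by 13.7, and the median share was 23.2%. The share was higher in replicate 2 in 72 of the 102. Over all matched families together it was 18.02% in replicate 1 and 19.3% in replicate 2. The log2 ratio of replicate 2 to replicate 1 moved together on copies and parents, with a Spearman rho of 0.676 and a Pearson r of 0.691 over the 102 families, given as a description since the families share both libraries. Marcksl1 is an example. It encodes an actin-regulating protein of the MARCKS family, and the log2 ratio was −1.15 on the gene, with 1008 and 1420 footprints. On its copy Marcksl1-ps4 it was −1.23, with 58 and 76.

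**Figure D4:**
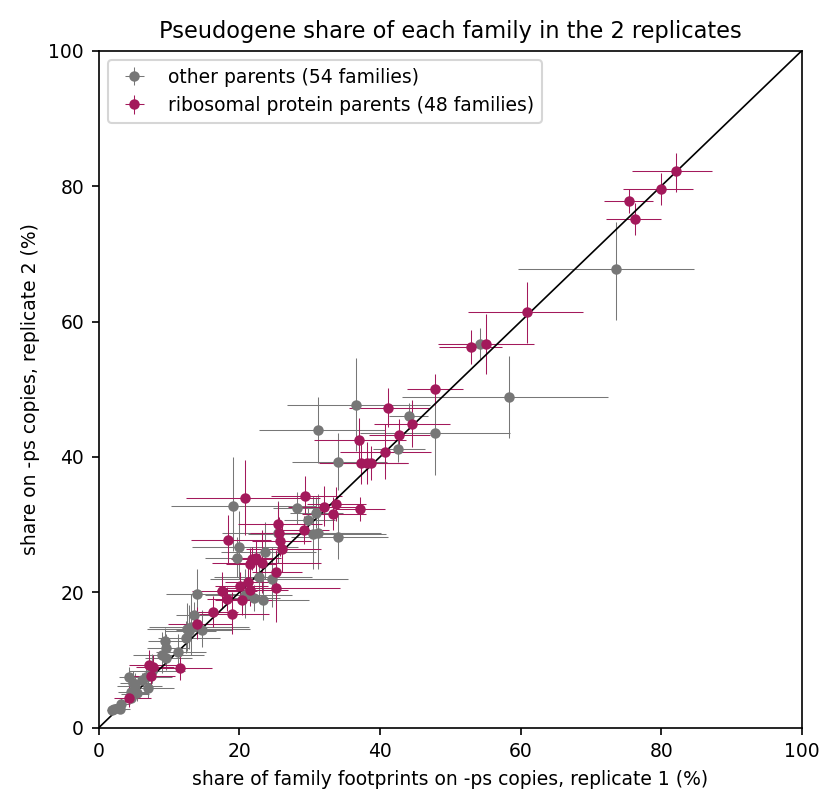
Percent of each family's footprints that lay on the -ps copies in replicate 1 (horizontal) and replicate 2 (vertical), with 95% exact binomial intervals, for 48 ribosomal protein families and 54 others. The points follow the line of equal shares from near 0 to over 80%, and the median difference is 1.72 percentage points.

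Differences between the replicates were tested with a two-sided exact binomial test per transcript after scaling by trimmed mean of M-values (TMM). This sets one library against the other with no error beyond counting, and no condition is compared. Of 43655 transcripts whose counts averaged 10 or more, 5.54% were called at an adjusted p under 0.05 (Benjamini-Hochberg over all of them), 0.715% higher and 4.82% lower in replicate 2. Of 2266 processed pseudogenes tested, 74 (3.27%) were called, 12 higher and 62 lower, and 256 had an unadjusted p under 0.05. In the same test 6524 of all 43655 transcripts had an unadjusted p under 0.05. The share called was below that of all transcripts. With scaling by library totals 59 pseudogenes were called, 28 of them higher, while 4.35% of all transcripts were called, so the division by direction depended on the scaling. With the variation between the replicates modelled by a common dispersion in the edgeR exact test, 0 pseudogenes and 0.0183% of all transcripts were called, and 63 pseudogenes had an unadjusted p under 0.05. The median log2 ratio was 0.08 over the pseudogenes and 0.04 over all transcripts tested. Library totals raised the median over all transcripts by 0.15. The cell-type markers also differed between the libraries. The summed level was 5105 and 3950 CPM for the 6 neuronal markers, 784 and 961 for the 5 oligodendrocyte-lineage markers and 1701 and 1716 for the 5 astrocyte markers. It was 181 and 163 for the 4 microglial, 197 and 152 for the 3 endothelial and 1498 and 1055 for the 3 red cell genes. Among single genes Ttr had 582 CPM in replicate 1 and 277 in replicate 2, Tubb3 had 1422 and 782, and Mbp had 231 and 410. Fewer cells of a type and fewer footprints per cell cannot be told apart here, and the part of such differences in the calls was not tested.

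The calls lay on the most covered transcripts. In the third with the highest density, the mean count had a median of 92 over all transcripts and 56.5 over the pseudogenes. The test calls more at higher counts, so a lower share called there does not show closer agreement. In the third of all transcripts with the highest density 13.7% were called, and of 1501 pseudogenes in it 71 (4.73%) were, 62 of them lower. Gm5620 had a log2 ratio of −0.92 (exact binomial test, adjusted p = 3.14e-80), and Gm14150 one of −0.82 (adjusted p = 1.69e-67). Gm11223 had −0.88. Marcksl1-ps4 was the lowest of those called with a mean count of at least 50 (exact binomial test, adjusted p = 7.12e-05), and Gm28911, with 42 and 66 footprints, had −0.97. Gm14892, with 79 and 132, had −0.90. Apart from Gm14150, these were the lowest 5 by ratio among the called transcripts with enough counts to be named, and those that follow the highest 5. Gm7206 was highest at 1.29, with 12 and 96 footprints (adjusted p = 0.0227, exact binomial test). Gm11410 had 25 and 191 footprints and a ratio of 1.25, Gm14253 had 13 and 95 and a ratio of 1.17, Gm5578 had 25 and 161 and a ratio of 1.01, and Gm6565 had 20 and 125 and a ratio of 0.96. Among the 240 ribosomal copies 178 were tested and 1 was called, higher in replicate 2, against 5.54% called over all transcripts tested. Across the 2266 pseudogenes log2(CPM + 1) in the replicates had a Pearson r of 0.943 and a Spearman rho of 0.929, against an r of 0.954 over coding transcripts.

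**Figure D5:**
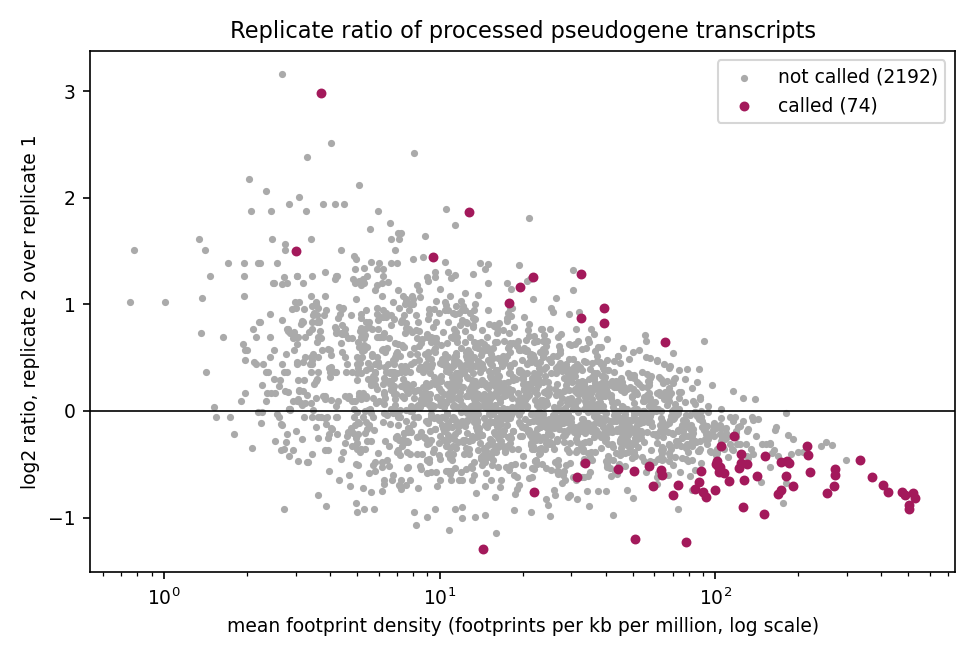
Log2 ratio of replicate 2 to replicate 1 after TMM scaling against mean density (log scale) for the 2266 processed pseudogene transcripts tested, with the 74 called ones coloured. Called transcripts lie mostly below 0 at high density, and the uncalled ones scatter more widely at low density.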

How the data were processed

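The authors deposited 1 table of counts per transcript, not normalized, with 1 column per replicate and each transcript's biotype and length. The submitters' processing notes name Trimmomatic 0.36, Bowtie2 2.2.6, SAMtools and build GRCm38.p4, and the counting rule, use of strand and treatment of multiple matches are not given in the sources used here. Pseudogenes share sequence with parents and overlap other genes, so their counts are uncertain.

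Counts were scaled to CPM and to CPM per kilobase. Parents were symbols without the -ps suffix that matched a gene with a protein-coding transcript, over its longest one, with all its transcripts' counts summed. The log2 density ratios used a pseudocount of 0.5 counts, and the log2 replicate ratios a prior of 0.5 CPM. TMM factors came from edgeR 4.0.16, with DESeq2 1.42.0 size factors as an alternative. Tests used SciPy 1.17.1 in Python 3.11.15 and were tested on simulated data. The simulated counts held counting error alone, so they cannot show how the test behaves with spread between samples. The binomial p-values cover counting error alone and hold no spread between samples.

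Named transcripts were the 15 with highest CPM, the 10 with highest density from 200 nucleotides up, the 5 called highest and 5 lowest with a mean count of at least 50, the 10 leading transcribed ones, the 10 -ps families with most footprints or with at least 4 copies, and parents. Others (RefSeq coding genes, Tma7, Gstm2-ps1, Rab11b-ps2, Ap3s1, Rps23, and leading -ps transcripts) were chosen after their values were seen. The transcripts and lists were chosen with earlier results of these data known. Some families that meet this rule are not reported here.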

Additional observations from a re-analysis of the deposited data

How the results depend on the processing

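The share of footprints on processed pseudogenes, 4.37%, was 4.17% with the biotype processed_pseudogene alone 4.00% without the 10 leading transcripts and 10.4% as a share of summed density, and 4.28% to 4.45% with either replicate left out. The number with at least 10 footprints in both replicates, 1562, was 3407 at a minimum of 1 and 379 at 50, and 1562 to 2682 in single replicates. Density as a percent of coding transcripts, 166, was 76.2 by medians with zeros, 288 by medians at a mean count of at least 10, 152 without the leading 10, 115 at 300 to 2000 nucleotides, 96.9 by coding sequence length, 71.7 against coding genes, and 161 to 171 with a replicate left out. The count that differed between replicates, 74, was 58 to 107 under 5 alternatives, which called 2.59% to 17.4% of all features, and 0 under edgeR's exact test, which called 0.0183%. The dispersion in edgeR's test came from the same 2 libraries, so that test could make few calls and does not decide whether pseudogenes differed. The median log2 ratio, 0.08, was 0.23 with library totals and −0.054 at a mean count of at least 50. The log2 density of copies over parents, −2.30, was −1.20 against the highest parent transcript, −2.13 with a pseudocount of 2, −1.82 at a mean count of at least 10, −3.52 with coding sequence length, −2.46 with synonyms, and −2.41 to −2.20 with a replicate left out. The share on copies, 18.7%, was 24.5% against the parents' coding transcripts alone and 19.7% with synonyms, and 18.02% to 19.3% with a replicate left out. Synonyms, RefSeq coding members, coding sequence length and coding genes were alternatives chosen after seeing the data. The causes of these shifts were not tested. No paired analysis was possible because the series holds 1 group. Leaving out a replicate leaves no comparison between the replicates. Replicate 1, the shallower library, limits detection, and with 2 replicates an SD is a rough measure.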
